A study of Homo sapiens with 6 samples.

Results

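Cadherins and claudins are the membrane proteins of adherens junctions and tight junctions, which hold neighbouring cells together. Cadherins are single-pass proteins that bind cadherins of the neighbouring cell when calcium is present, and the classical ones hold the actin cytoskeleton through catenins bound to their cytoplasmic tails, at adherens junctions. Claudins cross the membrane several times and line up in the strands of tight junctions, where some seal the space between cells and others form channels that let chosen ions or water pass. In epithelia such as the liver parenchyma both families set how cells attach and how tightly the bile space is closed off.

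The members were the rows of the deposited gene table whose symbol is CDH or CLDN followed by a number and whose type is protein coding. This took 47 genes, 23 cadherins and 24 claudins, of 60612 genes in the table, and each symbol had 1 row. Protocadherins, desmosomal cadherins and other relatives with different names are not among them and are described at the end. No measured value enters this rule.

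Poly(A) RNA was sequenced in 6 libraries. The cells are labelled as Hep3B, a line derived from a human liver tumour. The siEIF4G2 cells had been given a small interfering RNA against EIF4G2 at 50 nM (3 libraries) and the siNC cells a control small interfering RNA at the same 50 nM (3 libraries). No other treatment, time or clone is given, and the labels do not say that replicates came from separate cultures, so p-values measure the spread between these libraries only, which may be technical. EIF4G2, a scaffold protein of translation initiation, averaged 18.5 ± 1.36 FPKM in siEIF4G2 libraries and 98.2 ± 9.004 FPKM in siNC libraries (SD, n = 3 each), 5.41-fold lower (edgeR adjusted p = 0.000207). FPKM scales fragments by transcript length and library depth, so it can be compared between genes of different length.

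The cell label was checked against marker genes. None of 12 hepatocyte markers reached the level needed for a test, and 9 of them, among them albumin (ALB), alpha-fetoprotein (AFP) and APOA1, had a count of 0 in all 6 libraries, so the data go against a liver identity and the cells are called here only by their label. Of 8 epithelial markers, the keratins KRT7, KRT8 and KRT18 were abundant, with KRT8 at 176 ± 10.6 FPKM in siEIF4G2 libraries and 190 ± 3.21 FPKM in siNC libraries, while EPCAM and ESRP1 were at or near 0. The mesenchymal filament gene VIM stood at 117 ± 1.19 FPKM in siEIF4G2 libraries and 117 ± 4.22 FPKM in siNC libraries, and the 9 mesenchymal markers summed to 182 to 184 FPKM in siEIF4G2 libraries and 184 to 189 FPKM in siNC libraries. Total counts per library lay between 63351653 and 72863628, and all 6 libraries were kept.

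Most cadherin and claudin genes were silent or close to it in these cells. Of the 47 genes, 14 had a count of 0 in every library, 23 had some counts but stayed at or under 0.467 FPKM, and 10 passed the filter for testing, at least 0.5 FPKM in at least 3 libraries. The 10 tested genes were CDH2, CDH3, CDH5, CDH13 and CDH24 among cadherins and CLDN1, CLDN7, CLDN12, CLDN15 and CLDN23 among claudins. Counting a gene as expressed when it averaged at least 1 FPKM in at least 1 group, 9 were expressed, all of the tested genes other than CLDN1. CDH5 and CLDN15 reached that mark in siNC libraries only.

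**Figure D1:**
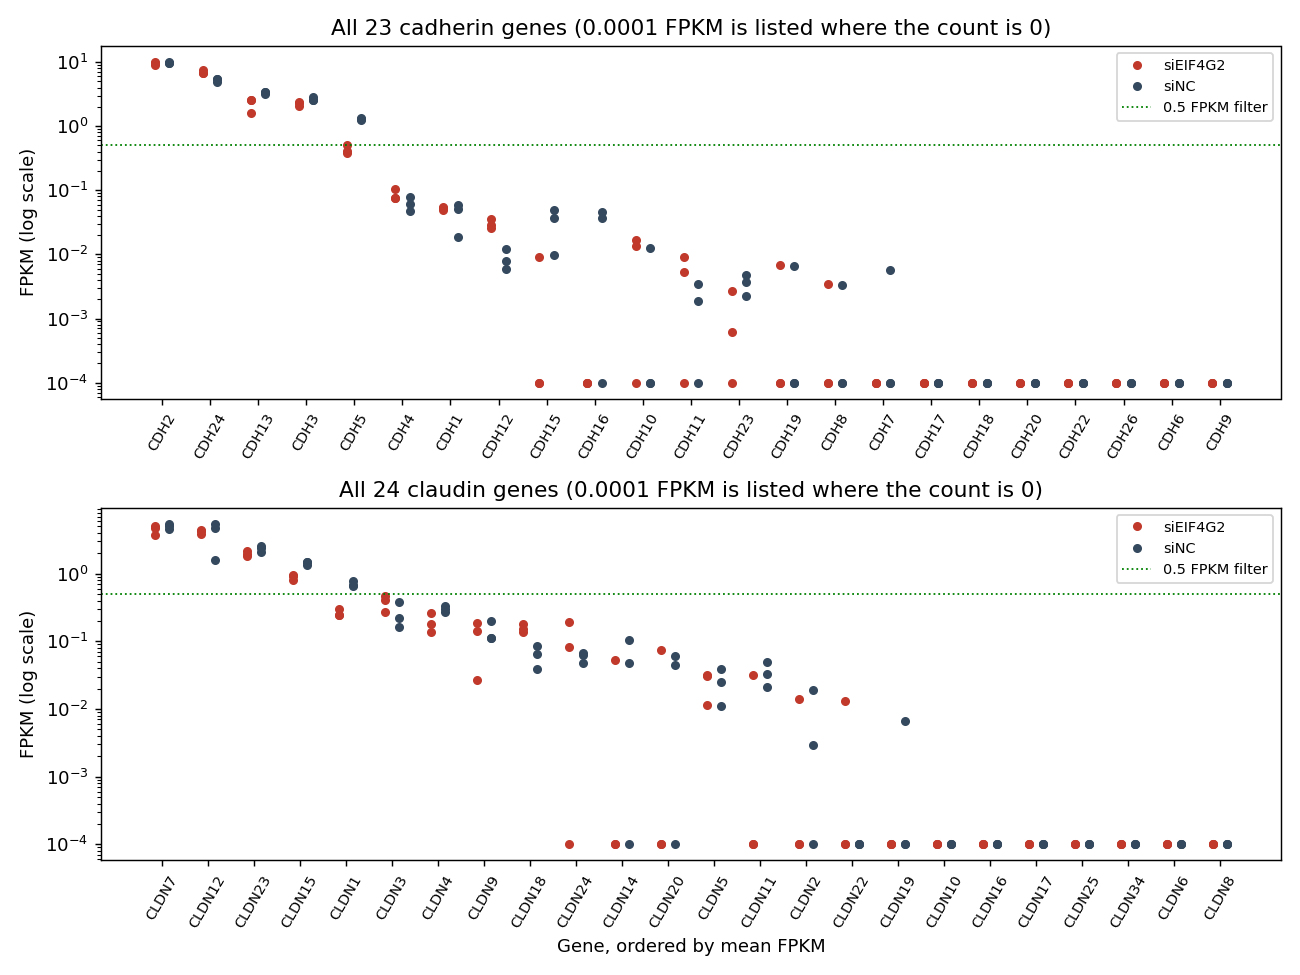
FPKM of each cadherin (top) and claudin (bottom) on a log axis, with a point for each siEIF4G2 library (left of each pair) and each siNC library (right), and genes ordered by mean level. The tested genes stand at or above the dotted line of 0.5 FPKM in at least 3 libraries, and 14 genes lie at the listed 0.0001 FPKM in all 6.

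By structural class, 2 of 5 type I classical cadherins were tested (CDH2 and CDH3), 2 of 13 type II classical cadherins (CDH5 and CDH24) and 1 of the 5 others (CDH13). Among claudins, 1 of the 4 best known as channel formers was tested (CLDN15) and 4 of the other 20.

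Silencing of EIF4G2 went with lower RNA of the endothelial cadherin CDH5 and of the claudins CLDN1 and CLDN15, and with higher RNA of the type II cadherin CDH24. With edgeR's quasi-likelihood test at a Benjamini-Hochberg adjusted p under 0.05, 1 of the 10 tested members was called higher, where 15.9% of all 13748 tested genes were, and 3 were called lower, where 17.6% of all tested genes were. In all, 4 of 10 members were called, beside 33.4% of all tested genes, so the share of members that changed was near the background. CDH5 and CLDN1 fell by over 2-fold, and 2.59% of all tested genes were called at least 2-fold lower. Both could be tested because of their siNC libraries, so they cannot be set against that share. Both also enter the counts of called members and the median over members, which carry the same limit. CLDN1 reached 0.5 FPKM in 0 siEIF4G2 libraries and CDH5 in 1. The median log2 fold change over the 10 members was -0.27, and over all tested genes it was 0.0075. These are RNA levels in whole cultures, where fewer cells of a type and less RNA per cell cannot be told apart.

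**Figure D2:**
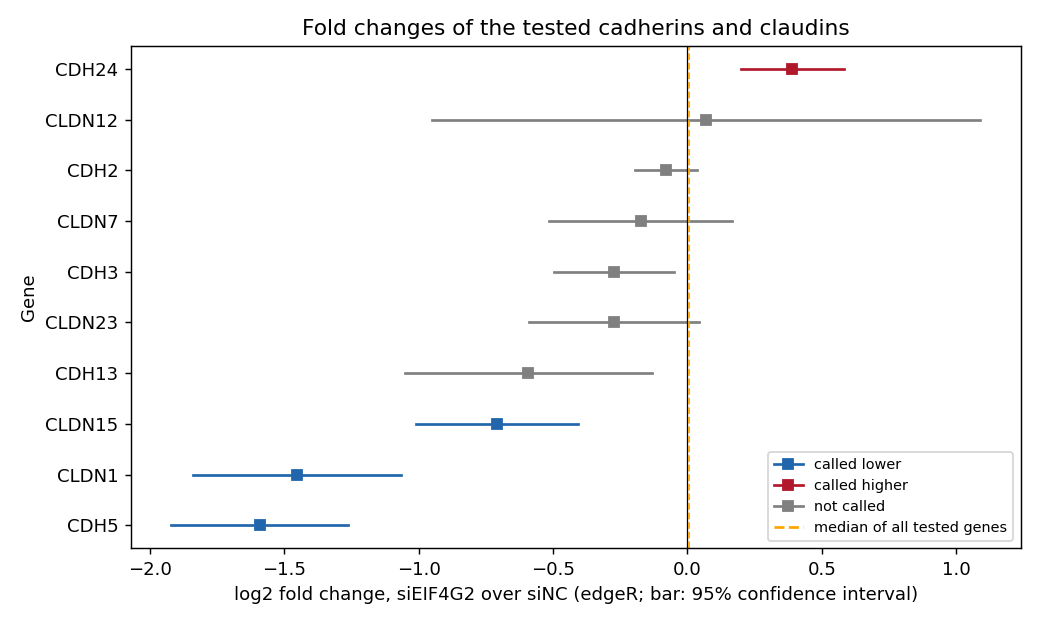
Log2 fold change of the 10 tested genes, siEIF4G2 over siNC, with 95% confidence intervals from edgeR and colours for the calls. CDH5 and CLDN1 lie farthest left, CDH24 is the one gene called higher, and the interval of CLDN12 is the widest.

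CDH2, or N-cadherin, a type I classical cadherin typical of neural, mesenchymal and heart muscle cells and also made by hepatocytes, was the most abundant member. It measured 9.56, 8.87 and 9.85 FPKM in siEIF4G2 libraries, against 9.71, 9.58 and 10.0 FPKM in siNC libraries. The groups overlapped. The log2 fold change was -0.08 ± 0.05 (SE), with a 95% interval of -0.19 to 0.04 and an edgeR adjusted p of 0.247. CDH2 is at chr18:27932879-28177946 on the minus strand (GRCh38) and stood at percentile 70.9 of all tested genes by mean FPKM.

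CDH3, or P-cadherin, is the type I cadherin of placenta and of basal epithelial layers. Its level was 2.37, 2.33 and 2.03 FPKM in siEIF4G2 libraries, against 2.81, 2.58 and 2.60 FPKM in siNC libraries. Every siEIF4G2 library was below every siNC library, yet the difference did not pass the edgeR test (log2 fold change -0.27 ± 0.09, 95% interval -0.50 to -0.05, adjusted p = 0.0656). DESeq2 called it lower, with an adjusted p of 0.0376. Of 15 alternative fits, 14 left CDH3 uncalled, with an adjusted p up to 0.177 (edgeR without siNC replicate 1). An antisense gene of the AC126773 clone overlaps CDH3 (chr16:68636189-68700292, plus strand) and averaged 0.561 FPKM in siEIF4G2 libraries and 0.716 FPKM in siNC libraries; strand use in counting is not stated in the sources, so reads of the pair may be mixed.

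CDH5, or VE-cadherin, is the type II cadherin of endothelial adherens junctions. It measured 0.386, 0.403 and 0.506 FPKM in siEIF4G2 libraries, against 1.34, 1.27 and 1.23 FPKM in siNC libraries. The groups were far apart, with all siEIF4G2 libraries low and all siNC libraries high. In counts, these were 206, 195 and 234 in siEIF4G2 libraries and 677, 625 and 636 in siNC libraries. CDH5 was 3.01-fold lower (log2 fold change -1.59 ± 0.14, 95% interval -1.92 to -1.26, edgeR adjusted p = 0.000756). It reached 0.5 FPKM in 1 siEIF4G2 library and 3 siNC libraries, so it could be tested only because of its siNC values. Fitted with no filter on low values, its edgeR adjusted p was 0.00123. The gene lies at chr16:66366622-66404782 on the plus strand and overlaps no other gene of the table.

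The level of CDH5 was read beside 8 endothelial markers. PECAM1 averaged 0.0268 FPKM in siEIF4G2 libraries and 0.0378 FPKM in siNC libraries, VWF averaged 0.0206 FPKM in siEIF4G2 libraries and 0.0483 FPKM in siNC libraries, and TIE1 was at 0 throughout. ESAM and EGFL7 were the 2 that could be tested. Their groups did not overlap, as in 50.6% of all tested genes, but they differed in opposite directions and neither was called. ESAM averaged 2.08 ± 0.357 FPKM in siEIF4G2 libraries and 1.52 ± 0.137 FPKM in siNC libraries (edgeR adjusted p = 0.0929). EGFL7 averaged 5.91 ± 0.569 FPKM in siEIF4G2 libraries and 7.20 ± 0.615 FPKM in siNC libraries (edgeR adjusted p = 0.0686). The summed level of the 8 genes was 7.24 to 8.68 FPKM in siEIF4G2 libraries and 8.27 to 9.29 FPKM in siNC libraries. The part of such cells in the CDH5 difference was not tested.

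CDH24, a type II classical cadherin that binds catenins, was the second most abundant cadherin. It measured 6.80, 6.70 and 7.56 FPKM in siEIF4G2 libraries, against 5.45, 5.44 and 4.87 FPKM in siNC libraries. All 3 siEIF4G2 libraries were above all 3 siNC libraries. CDH24 rose 1.31-fold (log2 fold change 0.39 ± 0.08, 95% interval 0.20 to 0.58, edgeR adjusted p = 0.0124). It lies at chr14:23047062-23057538 on the minus strand.

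CDH13, or T-cadherin, differs from the rest in that a lipid anchor holds it to the membrane and it has no cytoplasmic tail to bind catenins. Its values were 1.61, 2.54 and 2.58 FPKM in siEIF4G2 libraries, against 3.41, 3.14 and 3.43 FPKM in siNC libraries. All siEIF4G2 libraries were below all siNC libraries, and replicate 1 of siEIF4G2 was well below the other two of its group. The log2 fold change was -0.59 ± 0.19 with an edgeR adjusted p of 0.0561, short of the threshold. Without siEIF4G2 replicate 1 the difference was smaller, -0.39, but passed with an adjusted p of 0.0175, and DESeq2 on all libraries gave 0.00995. Of 15 alternative fits, 13 left CDH13 uncalled, with an adjusted p up to 0.131 (edgeR without siNC replicate 1). CDH13 spans chr16:82626965-83800640 on the plus strand.

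**Figure D3:**
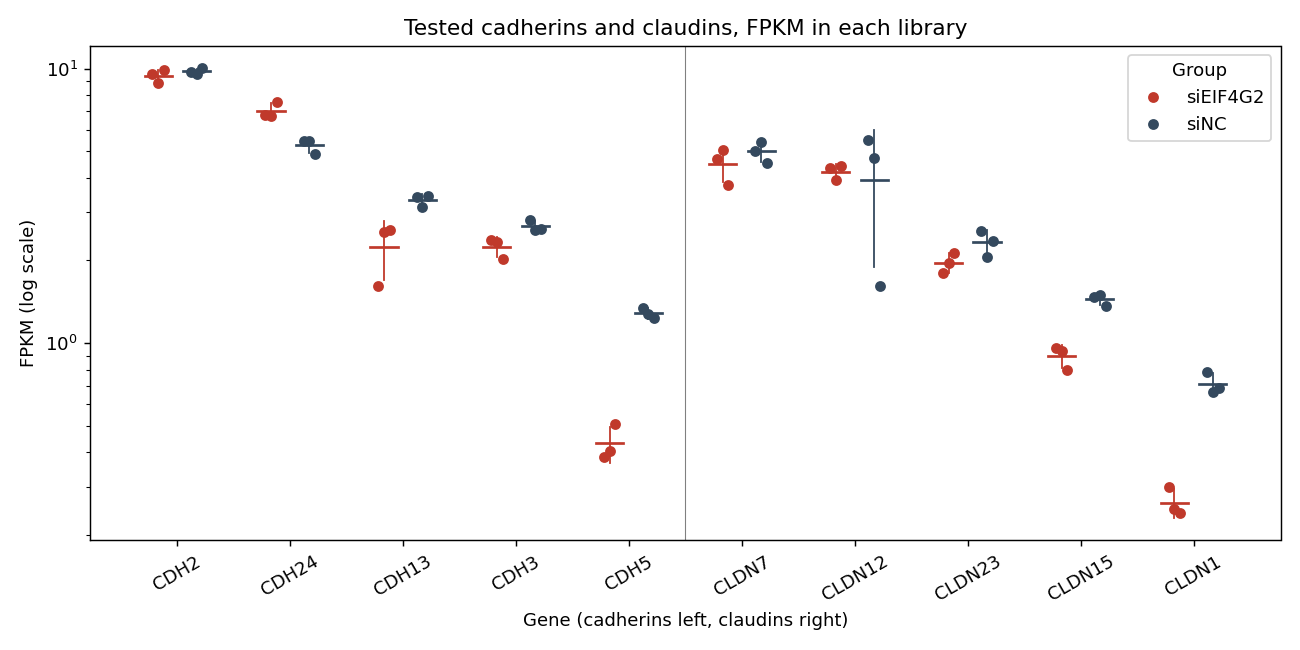
FPKM of the 10 tested genes on a log axis, with a point for each library, the mean as a horizontal line and the SD as a vertical line (n = 3 per group), siEIF4G2 left of siNC. The groups do not overlap for CDH3, CDH5, CDH13, CDH24, CLDN1 and CLDN15, and the siNC point of CLDN12 at 1.61 FPKM lies far below its fellows.

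CLDN1, a sealing claudin of most epithelia that also serves hepatitis C virus as an entry factor in liver cells, was the scarcest tested member. It had 0.298, 0.248 and 0.241 FPKM in siEIF4G2 libraries, against 0.786, 0.663 and 0.686 FPKM in siNC libraries. The highest siEIF4G2 value was below the lowest siNC value by a wide margin. In counts these were 96, 72 and 67 in siEIF4G2 libraries and 238, 195 and 212 in siNC libraries. CLDN1 was 2.74-fold lower (log2 fold change -1.45 ± 0.16, 95% interval -1.84 to -1.07, edgeR adjusted p = 0.00162). It was the one tested member that reached 0.5 FPKM in 0 siEIF4G2 libraries, where CDH5 reached it in 1. CLDN1 could thus be tested only because of its siNC values. Fitted with no filter on low values, CLDN1 had an edgeR adjusted p of 0.00329. By mean FPKM over all 6 libraries it stood at percentile 1.06 of tested genes, and its siNC mean was 0.712 FPKM.

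CLDN15, which forms paracellular channels for sodium ions in the gut, measured 0.959, 0.934 and 0.797 FPKM in siEIF4G2 libraries, against 1.47, 1.499 and 1.36 FPKM in siNC libraries. No siEIF4G2 library reached the level of any siNC library. The gene was 1.63-fold lower (log2 fold change -0.71 ± 0.12, 95% interval -1.01 to -0.41, edgeR adjusted p = 0.00776). CLDN1 lies at chr3:190305707-190322446 and CLDN15 at chr7:101232092-101238820, both on the minus strand, and neither overlaps another gene of the table.

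CLDN7, a claudin found along the lateral membrane of many epithelia, was the most abundant claudin. It measured 4.69, 5.05 and 3.78 FPKM in siEIF4G2 libraries, against 5.005, 5.42 and 4.55 FPKM in siNC libraries. The groups overlapped, with a log2 fold change of -0.17 ± 0.14, a 95% interval of -0.51 to 0.17 and an edgeR adjusted p of 0.385. CLDN7 (chr17:7259903-7263204, minus strand) shares 38 bases with ELP5 on the opposite strand.

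CLDN12, a claudin unusual in lacking the tail motif that binds PDZ scaffolds, had 4.33, 3.92 and 4.41 FPKM in siEIF4G2 libraries, against 5.51, 4.71 and 1.61 FPKM in siNC libraries. Replicate 3 of siNC stood apart from all other libraries, which were close to each other. With all libraries the log2 fold change was 0.07 ± 0.42 (95% interval -0.95 to 1.09, edgeR adjusted p = 0.917), and without that library it was -0.30, with an adjusted p of 0.0755. The direction of CLDN12 therefore rests on 1 library. The interval of CLDN12 (chr7:90383721-90513402, plus strand) also overlaps CDK14 and GTPBP10 on the same strand. CDK14 was higher in siEIF4G2 libraries by a log2 fold change of 1.27 (edgeR adjusted p = 0.00176). The part of reads divided among these genes in the CLDN12 values was not tested.

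CLDN23, a member of the family studied mainly in gut and skin epithelia, measured 1.80, 1.96 and 2.13 FPKM in siEIF4G2 libraries, against 2.57, 2.07 and 2.36 FPKM in siNC libraries. A single siNC library lay within the siEIF4G2 range. The log2 fold change was -0.27 ± 0.13, with a 95% interval of -0.59 to 0.04 and an edgeR adjusted p of 0.156. CLDN23 is at chr8:8701937-8704096 on the plus strand.

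Across the 10 tested genes, 6 had groups that did not overlap in CPM, counts scaled to library depth (CDH3, CDH5, CDH13, CDH24, CLDN1 and CLDN15), where 50.6% of all tested genes did the same. Cadherins supplied 4 of the 6. Marker lists of several cell types held genes called lower. Of 4 tested epithelial markers 3 were called lower by edgeR (KRT7, KRT18 and ST14), and of 6 tested mesenchymal markers 3 were called lower (FN1, COL1A1 and PDGFRB) and 1 higher (COL3A1), where 17.6% of all tested genes were lower and 15.9% higher. The median log2 fold change was -0.47 over the epithelial markers and -0.46 over the mesenchymal ones. Among the few tested neural, muscle and leukocyte markers SNAP25, ACTC1 and CSF1R were called lower. The epithelial summed level was 420 to 457 FPKM in siEIF4G2 libraries and 549 to 578 FPKM in siNC libraries. The part of these differences in the lower CLDN1 and CLDN15 was not tested.

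Both the sum and the make-up of each family were compared. All cadherins together gave 20.9 to 22.7 FPKM in siEIF4G2 libraries and 22.2 to 22.9 FPKM in siNC libraries. CDH2 held 43.7 ± 1.81% of that sum in siEIF4G2 libraries and 43.5 ± 1.25% in siNC libraries (SD, n = 3 each). CDH24 held 32.5 ± 0.707% in siEIF4G2 libraries and 23.4 ± 1.39% in siNC libraries, while CDH5 held 1.996 ± 0.202% and CDH13 10.4 ± 2.35% in siEIF4G2 libraries against 5.70 ± 0.171% and 14.8 ± 0.614% in siNC libraries. The leading cadherin thus kept its share, and the share of CDH24 was larger beside smaller shares of CDH5 and CDH13. CDH3 took 10.5 ± 1.31% in siEIF4G2 libraries and 11.8 ± 0.372% in siNC libraries.

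All claudins together gave 12.9, 13.3 and 12.5 FPKM in siEIF4G2 libraries, against 16.2, 15.4 and 11.6 FPKM in siNC libraries. Replicates 1 and 2 of siNC were above every siEIF4G2 library, and replicate 3, where CLDN12 was low, was below them all. CLDN7 held 34.9 ± 4.09% of claudin FPKM in siEIF4G2 libraries and 35.1 ± 4.25% in siNC libraries. CLDN12 held 32.8 ± 2.997% in siEIF4G2 libraries and 26.1 ± 10.7% in siNC libraries, where replicate 3 alone stood at 14.0%. By SD, the shares of CLDN12, CLDN23, CLDN15, CLDN3 and CLDN1 varied more in siNC than in siEIF4G2 libraries. The share of CLDN7 varied about equally, and those of CLDN4, CLDN9, CLDN18 and CLDN24 varied less. CLDN15 took 6.96 ± 0.536% in siEIF4G2 libraries and 10.2 ± 1.43% in siNC libraries, and CLDN1 took 2.04 ± 0.243% in siEIF4G2 libraries and 5.03 ± 0.832% in siNC libraries. These shares are descriptions and were not tested, since shares of a sum depend on each other.

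**Figure D4:**
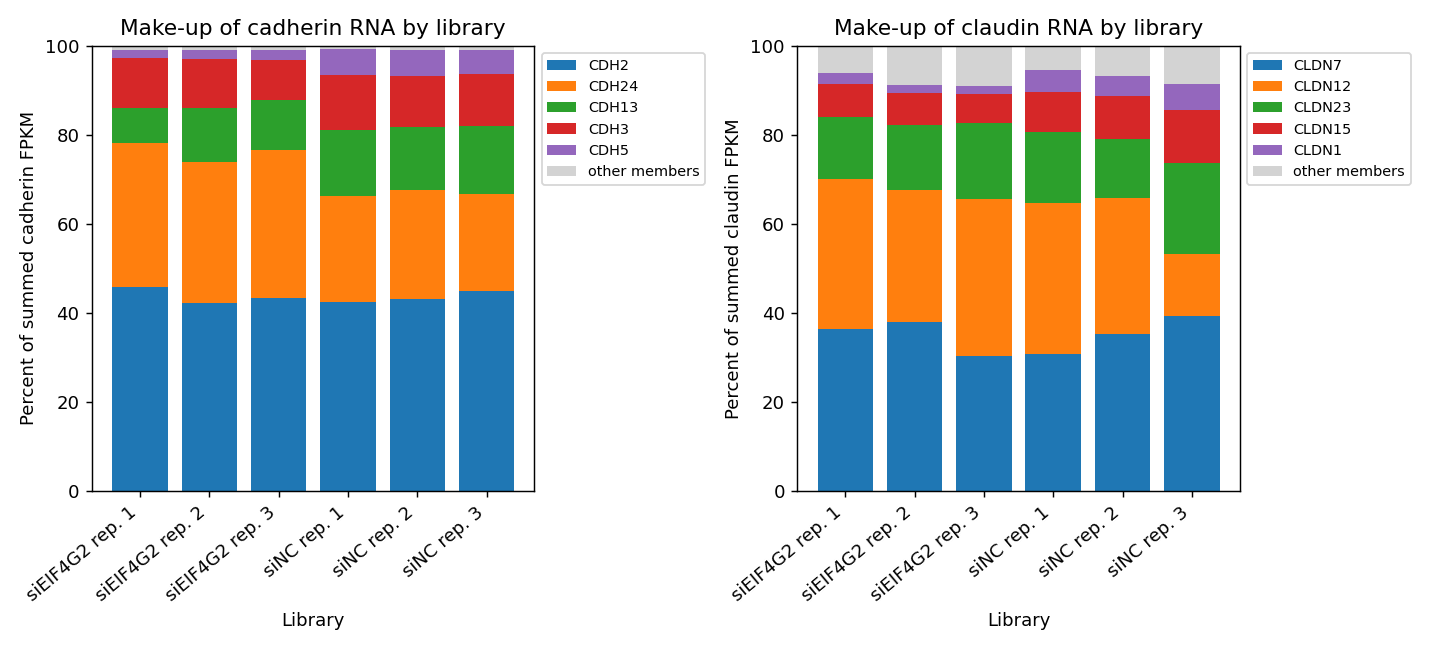
Stacked bars of the percent of summed cadherin FPKM (left) and summed claudin FPKM (right) in each library, siEIF4G2 libraries left of siNC libraries. CDH24 fills a larger part of the siEIF4G2 bars (32.5% on average) than of the siNC bars (23.4%), and CLDN12 is thin in siNC replicate 3 (14.0%).

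By level, the order among cadherins was CDH2, CDH24, CDH13, CDH3 and CDH5 in siNC libraries. In siEIF4G2 libraries CDH13 and CDH3 overlapped and shared a mean of 2.24 FPKM. Among claudins CLDN7 and CLDN12 were not separated in either group, and CLDN23, CLDN15 and CLDN1 followed in that order in both.

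The 23 genes under the filter included several that define epithelial junctions elsewhere. CDH1, or E-cadherin, the cadherin of most epithelia, had 30, 28 and 24 counts in siEIF4G2 libraries and 31, 26 and 10 counts in siNC libraries, at most 0.0597 FPKM. It starts 37.0 kb after the end of CDH3, which was expressed. CLDN4 had 57, 67 and 93 counts in siEIF4G2 libraries and 131, 115 and 109 counts in siNC libraries. CLDN3 had 47, 48 and 26 counts in siEIF4G2 libraries and 18, 23 and 42 counts in siNC libraries, and these overlapped. CLDN4 and CLDN3 are neighbours, 29.3 kb apart on chromosome 7.

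CLDN18, a claudin of stomach and lung, had 60, 40 and 43 counts in siEIF4G2 libraries and 27, 12 and 21 counts in siNC libraries. CDH12, a type II cadherin of brain, had 15, 17 and 12 counts in siEIF4G2 libraries and 4, 6 and 3 counts in siNC libraries. The CDH12 interval holds HSPD1P1 on the opposite strand, a gene at 7.48 FPKM in siEIF4G2 libraries and 3.46 FPKM in siNC libraries, and the part of its reads in the CDH12 counts was not tested. CDH15, the cadherin of muscle precursors, had 4, 0 and 0 counts in siEIF4G2 libraries and 4, 19 and 15 counts in siNC libraries. CDH16, a kidney cadherin, was at 0 in all siEIF4G2 libraries and had 0, 11 and 15 counts in siNC libraries. The upper limit behind a 0 is 3 counts, which is 0.0412 to 0.0474 CPM in these libraries.

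When edgeR was run with no filter on low values, 0 of these 23 genes were called. Of the 27064 genes then fitted, 14.4% were called, 6.54% higher and 7.9% lower. In that fit CLDN18 had a log2 fold change of 1.26 and an adjusted p of 0.0763, CDH12 1.74 and 0.130, and CLDN4 -0.68 and 0.176. The same unfiltered edgeR fit called the same number of members, 4, as the filtered one. The other low genes were CDH4, CDH7, CDH8, CDH10, CDH11, CDH19 and CDH23, with at most 61 counts in a library, and CLDN2, CLDN5, CLDN9, CLDN11, CLDN14, CLDN19, CLDN20, CLDN22 and CLDN24, with at most 26. CLDN5, the claudin of blood vessel endothelium, had 10, 9 and 3 counts in siEIF4G2 libraries and 8, 4 and 12 counts in siNC libraries.

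The 14 genes at 0 throughout were CDH6, CDH9, CDH17, CDH18, CDH20, CDH22, CDH26, CLDN6, CLDN8, CLDN10, CLDN16, CLDN17, CLDN25 and CLDN34. CDH17, the liver-intestine cadherin, is known from intestine and some liver tumours. CLDN6 is known from embryonic stem cells and some tumours, CLDN8, CLDN10 and CLDN16 from kidney tubules.

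Several members are neighbours in the genome. Chromosome 16 holds 10 members, 8 cadherins and 2 claudins, and 3 of them were tested: CDH5, CDH3 and CDH13. All 3 had lower values in every siEIF4G2 library than in every siNC library. Over all tested genes 50.6% had groups that did not overlap, but that share counts both directions, so it is not like for like. Of the 3, CDH5 alone passed the edgeR test, and it could be tested only because of its siNC values. The 3 are not next to each other, since CDH16 lies between CDH5 and CDH3, and CDH1 between CDH3 and CDH13. Chromosome 5 holds 5 cadherins, of which 0 were tested. CLDN1 and CLDN16 are 94 bases apart on chromosome 3, where CLDN1 was detected in all libraries and CLDN16 in none. CLDN9 and CLDN6, 206 bases apart on chromosome 16, had at most 26 counts and 0 counts.

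Promoter sequences, 250 bases before to 50 bases after a start, were available from RefSeq (GRCh38.p14) for 31 of the 47 genes and 5 of the 10 tested ones, 50 promoters in all. Of the tested genes with a sequence, CLDN1 and CLDN15 are shown because both were called lower, and CDH2 because it was the most abundant member and was not called. They are printed 5′ to 3′ on the gene's strand, with the GC box, GGGCGG or CCGCCC on the other strand, in capitals. The CLDN1 window is chr3:190322397-190322696, the CLDN15 window chr7:101237753-101238052 and the CDH2 window chr18:28177081-28177380, all on the minus strand.
CLDN1: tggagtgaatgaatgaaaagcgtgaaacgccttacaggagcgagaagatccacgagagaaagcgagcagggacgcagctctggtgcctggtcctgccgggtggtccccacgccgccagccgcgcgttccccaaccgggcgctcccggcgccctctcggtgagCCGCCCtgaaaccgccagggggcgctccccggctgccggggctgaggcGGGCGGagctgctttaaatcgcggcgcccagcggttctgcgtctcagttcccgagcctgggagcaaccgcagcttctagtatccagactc
CLDN15: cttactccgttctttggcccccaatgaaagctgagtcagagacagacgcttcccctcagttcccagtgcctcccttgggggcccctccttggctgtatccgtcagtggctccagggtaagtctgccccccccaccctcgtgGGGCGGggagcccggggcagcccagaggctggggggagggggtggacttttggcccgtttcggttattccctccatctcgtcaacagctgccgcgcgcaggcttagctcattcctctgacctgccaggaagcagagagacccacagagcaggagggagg
CDH2: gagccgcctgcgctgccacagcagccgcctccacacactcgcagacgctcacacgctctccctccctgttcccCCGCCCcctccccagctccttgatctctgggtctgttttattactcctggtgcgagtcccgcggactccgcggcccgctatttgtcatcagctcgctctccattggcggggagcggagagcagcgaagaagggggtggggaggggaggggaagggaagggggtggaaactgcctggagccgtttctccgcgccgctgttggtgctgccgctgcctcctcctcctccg

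The CLDN1 window holds 2 GC boxes, the others 1 each. CpG pairs number 31 in CLDN1, 12 in CLDN15 and 23 in CDH2, and G and C make up 67%, 64% and 67% of bases in that order. The start used for CLDN15 lies 1018 bases inside the gene's interval in the deposited table and that of CDH2 816 bases inside, whereas that of CLDN1 matches the interval's end. No window among the 3 holds the E-box letters CACCTG or CAGGTG that Snail and ZEB repressors can bind, and no match says only that these letters are absent from these bases. CLDN7, by contrast, has 5 of them in the window of 1 of its 2 starts.

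Over all promoters of members, 16 of 50 (32%) held a GC box on either strand, where 44.95% of all 35116 RefSeq promoters of this length did. CACCTG or CAGGTG was in 10 of 50 (20%), against 20.59% of all promoters. The wider E-box CANNTG, which includes those letters, was in 35 of 50 (70%), against 68.68% of all, and TATAAA or TTTATA was in 4 of 50 (8%), against 11.53% of all. Several promoters can belong to 1 gene, so the 50 are not independent, and a match is a description of letters, not a site.

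The proteins that cadherins and claudins hold on to were described from gene lists. Of 18 adherens junction partners 15 were tested, 4 were called higher by edgeR and 6 lower, beside 15.9% higher and 17.6% lower among all tested genes, with a median log2 fold change of -0.18. Beta-catenin (CTNNB1), which links classical cadherins to alpha-catenin, averaged 20.5 ± 0.791 FPKM in siEIF4G2 libraries and 22.7 ± 0.345 FPKM in siNC libraries (SD, n = 3 each). It was 1.12-fold lower with an edgeR adjusted p of 0.0317, a call that held in 7 of 15 alternative fits. It was lost without siEIF4G2 replicate 1 or without any 1 of the siNC libraries, with edgeR adjusted p up to 0.0977. The call was also lost with no filter on low values, in both limma fits and with replicate number as a block. Plakoglobin (JUP), which can take the place of beta-catenin and also serves desmosomes, averaged 69.8 ± 2.13 FPKM in siEIF4G2 libraries and 105 ± 5.91 FPKM in siNC libraries, 1.52-fold lower (edgeR adjusted p = 0.00111).

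Alpha-catenin (CTNNA1) averaged 54.8 ± 3.48 FPKM in siEIF4G2 libraries and 55.9 ± 4.23 FPKM in siNC libraries and was not called (edgeR adjusted p = 0.620). The p120 catenin CTNND1, which holds cadherins at the surface, averaged 14.0 ± 2.46 FPKM in siEIF4G2 libraries and 16.5 ± 2.94 FPKM in siNC libraries and was not called either (edgeR adjusted p = 0.286). Vinculin (VCL), which ties the complex to actin under tension, was 1.42-fold lower (edgeR adjusted p = 0.000930), and the catenin relative PKP4 was 1.64-fold higher (edgeR adjusted p = 0.00117). NECTIN4, an adhesion receptor that acts beside cadherins, averaged 0.178 ± 0.0563 FPKM in siEIF4G2 libraries and 1.31 ± 0.0562 FPKM in siNC libraries, with an edgeR log2 fold change of -2.89 and an adjusted p of 0.000810. Like CLDN1, it passed the filter through the siNC libraries alone, and with no filter its edgeR adjusted p was 0.00128.

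Of 28 tight junction partners 19 were tested, 4 called higher and 2 lower, with a median log2 fold change of -0.03; the 6 called are a share near the 33.4% called among all tested genes. TJP3, one of the ZO scaffolds that bind claudin tails, was 1.60-fold lower (edgeR adjusted p = 0.00976), and its interval overlaps APBA3. TJP1 averaged 4.79 ± 0.148 FPKM in siEIF4G2 libraries and 4.08 ± 0.346 FPKM in siNC libraries and was not called (edgeR adjusted p = 0.0793), although without siNC replicate 1 it was (adjusted p = 0.0312). The polarity scaffold PARD3 was 1.32-fold higher, the angiomotin relative AMOTL1 1.29-fold higher and the junction receptor CXADR 1.20-fold higher, with edgeR adjusted p of 0.00236, 0.00485 and 0.0146. Occludin (OCLN), the partner of claudins in tight junction strands, was under the filter at 0.140 FPKM in siEIF4G2 libraries and 0.145 FPKM in siNC libraries.

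**Figure D5:**
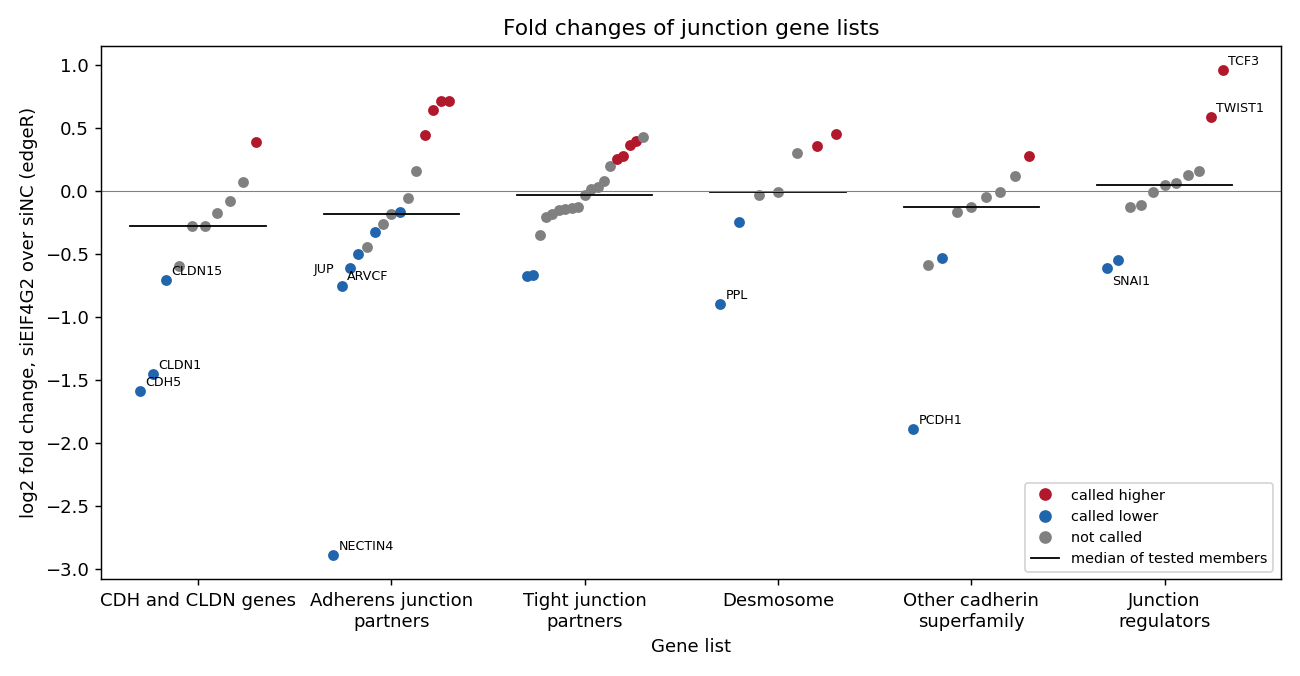
Log2 fold change, siEIF4G2 over siNC, of each tested gene in the cadherin and claudin set and in 5 lists of related genes, with points coloured by call and a line at each list's median. NECTIN4 at -2.89 and PCDH1 at -1.89 lie lowest and TCF3 at 0.96 highest.

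Among 14 desmosome genes 7 were tested, 2 called higher and 2 lower, beside 15.9% and 17.6% of all tested genes. Periplakin (PPL), which links desmosomes to keratin, was 1.86-fold lower (edgeR adjusted p = 0.000355), while the desmosomal PERP was 1.37-fold and PKP3 1.28-fold higher (edgeR adjusted p = 0.00108 and 0.00795). DSG2, the desmosomal cadherin of simple epithelia, averaged 32.0 ± 2.40 FPKM in siEIF4G2 libraries and 37.2 ± 0.660 FPKM in siNC libraries, above every CDH gene. It was 1.19-fold lower (edgeR adjusted p = 0.0173), a call lost without siNC replicate 1 (adjusted p = 0.0593).

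Of 28 other cadherin superfamily genes 9 were tested, 1 called higher and 2 lower, near the 33.4% of all tested genes that were called. Protocadherin PCDH1 measured 0.265, 0.198 and 0.328 FPKM in siEIF4G2 libraries, against 0.983, 1.06 and 0.846 FPKM in siNC libraries, and was 3.71-fold lower (edgeR adjusted p = 0.00153). It too passed the filter through the siNC libraries alone; fitted with no filter on low values, its edgeR adjusted p was 0.00240. The calsyntenin CLSTN3 was 1.45-fold lower (edgeR adjusted p = 0.0112). PCDH10 was 1.21-fold higher (edgeR adjusted p = 0.0206), a call that held in 9 of 15 alternative fits. It was lost without siEIF4G2 replicate 1 or 2 or without any 1 siNC library, with edgeR adjusted p up to 0.0690. The call was also lost with replicate number as a block.

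Of 20 transcription and splicing regulators known to act on junction genes 11 were tested, 2 called higher and 2 lower, again near the 33.4% called among all tested genes. TCF3, whose E proteins can repress CDH1, averaged 5.66 ± 0.335 FPKM in siEIF4G2 libraries and 2.85 ± 0.0514 FPKM in siNC libraries, 1.95-fold higher (edgeR adjusted p = 0.000473). TWIST1, another E-box factor, was 1.503-fold higher (edgeR adjusted p = 0.00900), and ELF3, an epithelial factor whose interval overlaps ELF3-AS1, 1.46-fold lower (edgeR adjusted p = 0.00158). The E-box repressor SNAI1 was 1.53-fold lower (edgeR adjusted p = 0.0446), a call lost without any 1 siEIF4G2 library or without siNC replicate 1 or 2, with p up to 0.117. ZEB1, ZEB2 and SNAI2 were tested and not called.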

How the data were processed

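The authors deposited 1 table of genes that gives, per the file headers, a count and an FPKM value for each of the 6 libraries. Per the submitters' processing notes, HISAT2 2.0 and StringTie 1.3.0 were used; no source used here gives the build or the use of strand. The deposited counts are whole numbers that behave as rounded estimated counts, since small values were commonest at multiples of 4, so 1 count need not be 1 fragment and limits taken from 3 counts may be too low. The design had foreseen raw counts or FPKM alone. A count of 0 comes with 0.0001 FPKM in the deposited table. Intervals of all 47 members overlapped GENCODE 29 genes on the same strand, so coordinates are given as GRCh38.

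Groups came from the sample titles. Of rows that share a symbol the one with the highest mean FPKM was kept, and 13748 genes that reached 0.5 FPKM in 3 or more libraries were fitted, with TMM scaling on the full library totals and the group as the only term (edgeR 4.0.16 in R 4.3.3; two-sided tests, Benjamini-Hochberg over all fitted genes). SE is the absolute log2 fold change over the square root of F. TMM factors were 0.985 to 1.02 and the common coefficient of biological variation was 19.4%. Mitochondrial genes took 8.03% to 9.02% of counts. No libraries agreed within sampling noise. Alternatives used DESeq2 1.42.0, limma 3.58.1 on log2(FPKM + 1) or log2(FPKM + 0.1), other scalings and filters, a replicate block and leaving out each library; tables and figures used pandas 2.3.3, matplotlib 3.10.9 and numpy 2.4.6 under Python 3.11.15. Limits taken from counts cover counting error only, while the edgeR intervals also take in the spread between libraries.

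The members and all gene lists were chosen with earlier results of these data known. Every tested member is named, as are EIF4G2, of each list up to 4 called genes by smallest p, the catenins CTNNB1, CTNNA1, CTNND1 and JUP, and OCLN, TJP1 and TJP3; a gene that the rule also takes is not reported here. ZEB1, ZEB2, SNAI2, HSPD1P1, CDK14 and other overlapping genes were named after their values were seen. Promoters came from RefSeq, GRCh38.p14.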

Additional observations from a re-analysis of the deposited data

How the results depend on the processing

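Of 149 fold changes of the 10 tested members under 15 alternatives, 145 kept their side of the threshold, 0 reversed a call, 3 newly passed it and 1 lost it. DESeq2 called 5 members lower, adding CDH3 (adjusted p = 0.0376) and CDH13 (adjusted p = 0.00995); the cause was not tested. No shared label ties libraries of the same replicate number, and their deviations correlated at 0.0011, 0.032 and 0.050, so the replicate block is only an alternative: with it 0 members were called higher, CDH24 having an edgeR adjusted p of 0.0515, and 1726 genes were called higher and 2010 lower over all tested genes; the cause was not tested here either. Leaving out 1 library gave 1 to 1 members higher, 3 to 4 lower, 1567 to 1891 genes higher and 1785 to 2243 lower. A filter of 1 FPKM left 2 members lower, since CLDN1 was then not tested. On the log2(FPKM + 1) scale, which understates low genes, limma still called CDH5 (-0.67), CLDN1 (-0.44) and CLDN15. Dividing the counts by 4, an alternative chosen after seeing the data, gave 1 member higher and 3 lower. Across all settings the median log2 fold change of all fitted genes lay between -0.0099 (no filter on low values) and 0.032 (limma on log2(FPKM + 0.1)). A member that was not called may still differ within its interval. The 23 low genes rest on at most 131 counts per library.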
